A study of Arabidopsis thaliana with 10 samples.

Results

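Transcript levels were compared between 4 Affymetrix ATH1 arrays of Arabidopsis thaliana whole seedlings sampled at 24 h and 4 arrays of seedlings sampled at 4 h, 8 of the 10 arrays of the study. The members were chosen by their labelled time alone: 2 arrays of dexamethasone-treated and 2 of DMSO control seedlings at 24 h, and 2 of each at 4 h. All 4 groups had the Col-0 background and transposon knock-outs of both GLK genes (Atglk1;Atglk2), the transcription factors that promote chloroplast development. All were raised on hygromycin plates and then shaken in flasks of liquid medium at a constant temperature under long days. DMSO is the solvent, and dexamethasone a synthetic steroid hormone with which plant lines carrying inducible constructs are switched on; the labels used here name no transgene and no promoter. Each flask held many seedlings, so an array reports a pool of plants. The labels give no clock time for either sampling, and time of day, hours since the start of treatment and seedling age cannot be told apart between 24 h and 4 h. Whether both replicates of a group were grown in different flasks is not stated, and the p-values therefore cover the scatter of these samples only, which may be technical.

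In plants an internal circadian clock, set by light and dark, drives daily rhythms in a large part of the transcriptome. Its core is a loop of transcription factors that repress one another in turn through the day. Its outputs include photosynthesis and starch genes, cold-response genes and genes of growth and the cell wall. Starch is made in leaves by day and broken down at night, and many growth genes peak at a set time of day, so samples taken at different hours differ even where nothing else was done to the plants. COR27, a cold-regulated gene known to be controlled by the clock and by light and to feed back on the clock, served as the marker gene. Because the labels give no clock times, its change cannot be assigned to time of day here.

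The values are linear signals, in arbitrary units, that the authors had scaled to a common mean on each array; the median signal per array was 33.9 to 35.9. Changes are differences of log2(signal + 4.35) at 24 h minus 4 h, which understates the change of weak probe sets. They were tested with limma over 14443 probe sets, with treatment as a covariate, and a probe set passed at a Benjamini-Hochberg adjusted p under 0.05. Replicate arrays correlated with r between 0.9697 and 0.9872. The first principal component, with 35% of the variance, placed the 24 h arrays at 15.1 to 21.7 and the 4 h arrays at -21.9 to -13. The next component, with 27.6%, set apart 2 arrays, the first control replicate of 24 h and the second dexamethasone replicate of 4 h, from the other 6. On those 2 arrays the summed signal of 7 defence markers was 7490 and 10700, against 1668 to 2266 on the others. The defence markers AT4G12490 and AT4G12500 carried most of it, with 3580 and 2011 on that 24 h control array and 5969 and 2581 on that 4 h dexamethasone array. CHI and ChiC were also higher on both arrays, but the 7 markers did not move together. PR-1-LIKE was lower there, with 17.04 and 24.85 against 27.59 to 50.45 on the others. PDF1.2 had 208 and 360.9 against 243.8 to 481.9, and PDF1.2b had 1112 and 1455 against 967.6 to 1326. Each of these arrays is in a different time and a different treatment, and their part in the results below was not tested beyond leaving them out.

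COR27 (AT5G42900) was far lower at 24 h, with a mean signal 0.0748 times that at 4 h. It had 11.7 and 7.58 with dexamethasone and 8.59 and 7.77 in controls at 24 h, against 120 and 136 with dexamethasone and 109 and 112 in controls at 4 h. All 4 arrays at 24 h lay far below all 4 at 4 h, and the replicates and treatments lay close together at each time. The log2 change was -3.22 (SE 0.13, adjusted p = 2.93e-07). The signals at 24 h lay below percentile 40 of their arrays, 19.2 to 20.9, so the size of the fall depends on values near the bottom of the scale. The marker thus separated the times in the same way in dexamethasone (-3.25) and control seedlings (-3.20).

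Across the whole array, 574 probe sets rose and 455 fell at 24 h against 4 h, which is 3.97% and 3.15% of those tested, or 7.12% together. The changes were mostly modest. The median was 0.62 on the log2 scale among those that rose (quartiles 0.47 and 0.87) and -0.58 among those that fell (-0.82 and -0.44). A change of at least 1 log2 unit was reached by 109 that rose and 71 that fell, 1.25% of all tested, and one of at least 2 by 11 and 10. Of the probe sets that rose, 539 had all 4 signals at 24 h above all 4 at 4 h, and 432 of those that fell had them all below; 14.3% of all probe sets tested had groups that did not overlap. Calls were more frequent at high signal: when the probe sets were cut into equal parts by mean signal, 5.67% rose and 5.15% fell in the highest, with signals of 134 to 8260, against 1.99% and 1.2% in the lowest, with signals of 10.1 to 51.2. In bulk samples of whole seedlings, fewer cells of a type and less RNA per cell cannot be told apart.

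The annotation used here named a single gene for 7816 of the probe sets tested, and 485 of these passed (6.21%), 264 higher and 221 lower. The other calls belong to probe sets with several genes or none listed. Among those with none were the widest changes of all. At the time with the lower signal, 2 to 4 of their 4 values lay below percentile 40 of the array, so the sizes rest on values near the bottom of the scale. Probe set 249850_at had 7.24 ± 2.39 at 24 h and 175 ± 9.88 at 4 h (SD, n = 4 each), a log2 change of -3.98. Probe set 257985_at followed with 19.7 ± 2.53 at 24 h and 333 ± 36.5 at 4 h, a change of -3.81 and the smallest adjusted p of the comparison (1.14e-08). In the other direction 248910_at had 308 ± 26.8 at 24 h and 20.8 ± 5.46 at 4 h (3.65), and 250665_at had 192 ± 13.1 and 19.3 ± 1.66 (3.05). All 4 probe sets are given by ID only, because the annotation lists no gene for them.

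The few genes of the clock list that could be tested did not move as a block. Of 6 tested members of the clock list, 1 rose, 2 fell and 3 did not pass, with a median log2 change of -0.01 against 0.01 over all probe sets. Over all probe sets tested 3.97% rose and 3.15% fell, the shares to set beside this and every list below. The 3 clock genes that passed, COR27, AT4G33980 and GI, had been fixed by name, with earlier results of these data known. Their number can therefore not be weighed against those shares. Core clock genes without a single-gene probe set in this annotation were not analysed here. Over all lists, only 45 of the 278 loci fixed by locus tag had such a probe set. The counts therefore describe these 6 genes and not the clock as a whole. COR27 and AT4G33980 were the 2 that fell. AT4G33980 had 19.3 and 15.1 with dexamethasone and 15.6 and 14.1 in controls at 24 h, against 68.1 and 65.2 with dexamethasone and 67.1 and 69.0 in controls at 4 h. Its mean signal at 24 h was 0.238 times that at 4 h, 16.0 ± 2.25 against 67.3 ± 1.64 (SD, n = 4 each), and the log2 change was -1.82 (SE 0.13, adjusted p = 1.43e-05). All 4 signals at 24 h lay below percentile 40, which limits how exactly the size is known. The 2 genes lay on different chromosomes, 5 for COR27 and 4 for AT4G33980.

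GI (GIGANTEA), a clock protein that links the clock to flowering under long days, moved the other way. Its signals were 190 and 203 with dexamethasone and 201 and 187 in controls at 24 h, against 136 and 95.8 with dexamethasone and 158 and 147 in controls at 4 h. The groups did not overlap, although the 4 h arrays were more spread than the 24 h arrays. The log2 change was 0.55 (SE 0.13, adjusted p = 0.0257), with 0.76 in dexamethasone and 0.34 in control seedlings. This call was lost in 5 of the 18 alternative settings. XCT, a nuclear protein named for altered clock timing, had 0.25 (adjusted p = 0.51), and FIO1, an RNA methyltransferase whose loss alters the clock, had 0.02 (adjusted p = 0.971). AT5G52660 had -0.04 (adjusted p = 0.908).

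Of the clock outputs, AT1G07050 had the most negative log2 change of any single-gene probe set. It had 14.7 and 9.25 with dexamethasone and 4.35 and 11.1 in controls at 24 h, against 169 and 142 with dexamethasone and 124 and 143 in controls at 4 h. Every 24 h signal lay below percentile 40 of its array. The change was -3.43 (SE 0.19, adjusted p = 3.59e-06). AT1G69570, the other tested member of the photoperiod list, had 26.1 ± 8.18 at 24 h and 16.4 ± 10.4 at 4 h (SD, n = 4 each) with overlapping arrays, and did not pass (0.64, adjusted p = 0.273). HYH, a light-signalling factor of the bZIP type, had 20.6 ± 0.263 at 24 h and 27.8 ± 6.81 at 4 h and also did not pass (-0.34, adjusted p = 0.264).

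The pattern of COR27 over the arrays was shared most closely by a handful of genes that also fell. By Pearson's r of log2 values over the 8 arrays, AT4G33980 was nearest with 0.997, then AT2G21130 with 0.9915, CHL with 0.9894, AT4G16146 with 0.9875 and AT1G07050 with 0.9869. These arrays fall into 2 separate times, so r describes mainly that shared step. AT2G21130 had 115 and 119 with dexamethasone and 102 and 115 in controls at 24 h, against 360 and 378 with dexamethasone and 399 and 369 in controls at 4 h (log2 change -1.71, SE 0.08, adjusted p = 1.13e-06). AT4G16146 had 178 ± 9.68 at 24 h and 391 ± 33.5 at 4 h (SD, n = 4 each; -1.11, adjusted p = 3.05e-05). CHL, the chloroplastic lipocalin that protects thylakoid membranes, had 415 ± 6.02 and 689 ± 40.3 (-0.73, adjusted p = 0.00013).

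**Figure D1:**
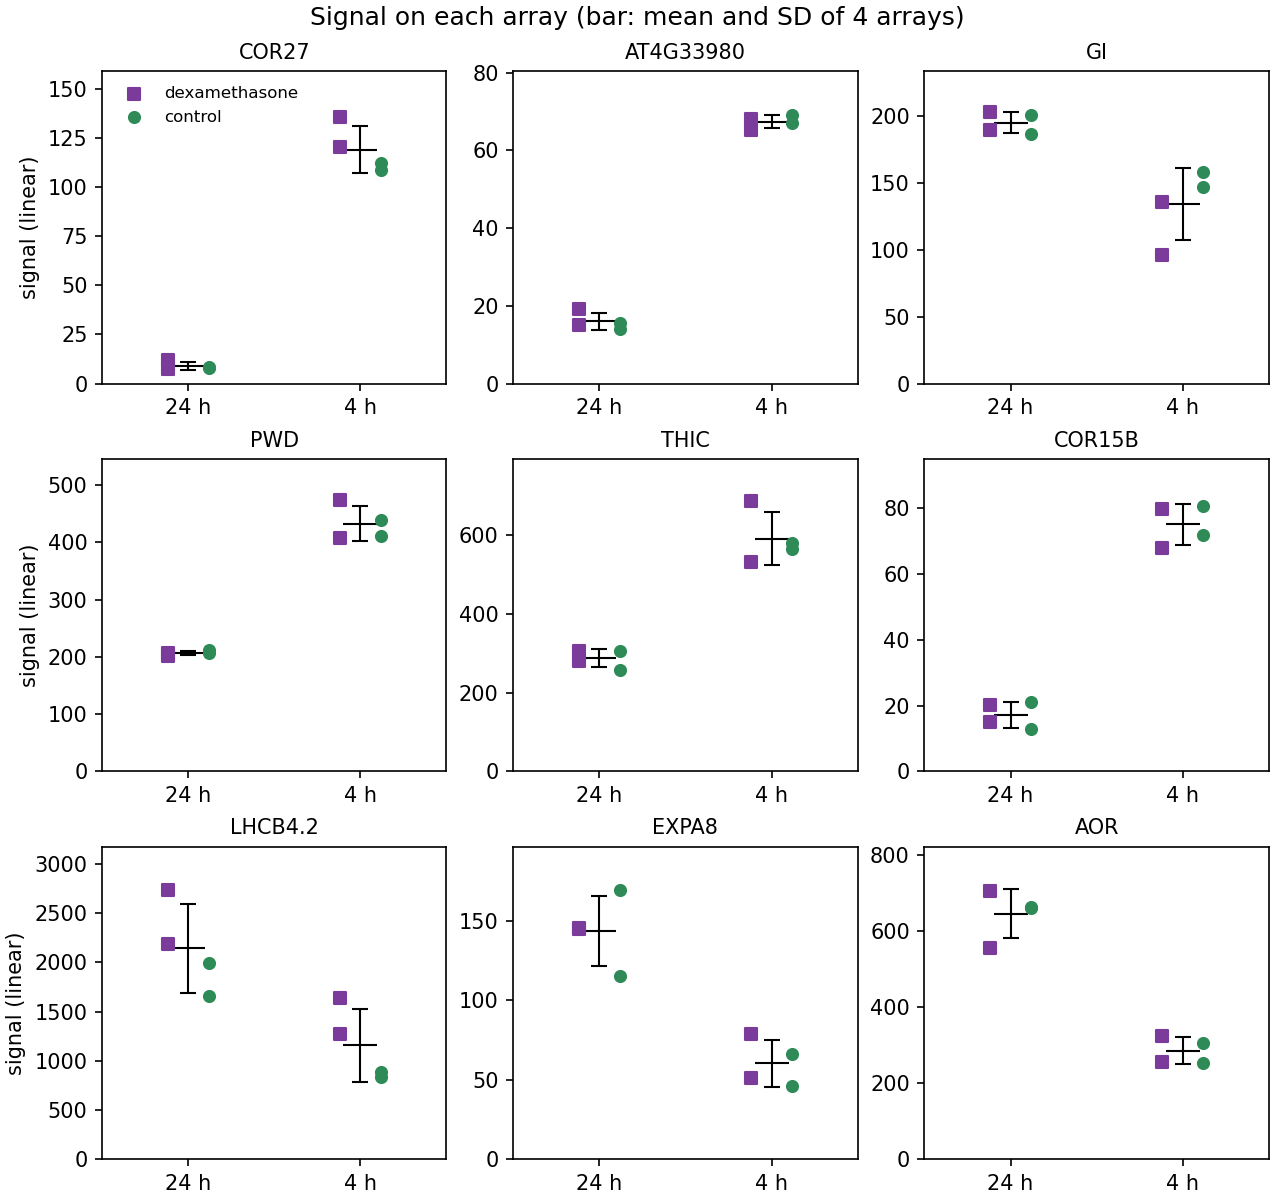
Linear signal of 9 genes on each of the 8 arrays, 24 h at the left and 4 h at the right of each panel; squares are dexamethasone and circles are control arrays, and the bar gives the mean and SD of the 4 arrays. COR27, AT4G33980, PWD, THIC and COR15B were lower at 24 h, GI, LHCB4.2, EXPA8 and AOR were higher, and in none of the 9 panels do the 2 times overlap.

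The genes of cold and dehydration changed only in part. Of 10 tested members, 2 fell and 8 did not pass, with a median of -0.13, against 3.15% that fell over all probe sets. Besides COR27, the one that fell was COR15B, which encodes a chloroplast stroma protein that protects membranes during freezing. It had 15.0 and 20.0 with dexamethasone and 12.8 and 21.1 in controls at 24 h, against 79.8 and 68.0 with dexamethasone and 80.8 and 71.9 in controls at 4 h. The log2 change was -1.90 (SE 0.16, adjusted p = 4.32e-05), and 3 of the 4 arrays at 24 h lay below percentile 40. Its near relative COR15A had -0.80 (adjusted p = 0.165), COR47, a dehydrin, had 0.10 and LTI30, another dehydrin, had 0.22; none of these passed. Growth was at a constant temperature per the labels, and the cause of these changes was not tested.

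Starch genes changed in both directions. Of 5 tested 1 rose and 2 fell, against 3.97% and 3.15% over all probe sets. PWD, the phosphoglucan, water dikinase that phosphorylates starch for its breakdown, fell to 0.478 times its mean signal at 4 h. It had 202 and 207 with dexamethasone and 207 and 212 in controls at 24 h, against 474 and 407 with dexamethasone and 439 and 411 in controls at 4 h (log2 change -1.05, SE 0.08, adjusted p = 2.49e-05). DPE1, the disproportionating enzyme that handles the maltotriose left by breakdown, had 162 ± 17.0 at 24 h and 221 ± 22.8 at 4 h (SD, n = 4 each; -0.44, adjusted p = 0.0281), a call lost in 6 of 18 alternatives. APL4, a large subunit of the ADP-glucose pyrophosphorylase that commits glucose to starch, had 35.8 ± 3.48 and 21.2 ± 1.44 (0.65, adjusted p = 0.0156), a call lost in 2. The branching enzyme SBE2.2 had 0.21 and the further large subunit APL3 -0.04, and neither passed. Of 5 tested genes in the list for sucrose and sugar transport, 0 rose and 0 fell. These included the vacuolar sugar carriers TMT1 (-0.08) and TMT2 (0.19), the exporter SWEET11 (-0.08) and the sucrose phosphate synthase ATSPS4F (-0.49, adjusted p = 0.284). The fifth, SWI3A, a chromatin-remodelling subunit, came in through a word of its annotation and had -0.01.

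Of the nuclear antenna and photosystem genes the annotation names, LHCB4.2 alone passed. LHCB4.2 (AT3G08940) encodes CP29, a minor antenna protein of photosystem II. It had 2735 and 2188 with dexamethasone and 1655 and 1994 in controls at 24 h, against 1634 and 1273 with dexamethasone and 837 and 888 in controls at 4 h. Within each treatment both 24 h arrays lay above both 4 h arrays, and at each time both dexamethasone arrays lay above both controls. The log2 change between times was 0.92 (SE 0.12, adjusted p = 0.0009), with 0.76 in dexamethasone and 1.07 in control seedlings. Its relatives LHCB4.1 (0.27, adjusted p = 0.0998) and LHCB4.3 (-0.43, adjusted p = 0.102) did not pass. Of the 7 tested genes of photosystem and electron transport, the antenna genes included, 1 rose and 0 fell, 6 lay above 0 and the median was 0.27. Over all probe sets tested 3.97% rose, 7620 of 14443 lay above 0 and the median was 0.01.

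Among the genes of chlorophyll synthesis PORB alone passed. Of 6 tested genes 1 fell, 0 rose and 5 lay below 0, with a median of -0.17. Over all probe sets 3.15% fell, 6823 of 14443 lay below 0 and the median was 0.01. PORB, the light-dependent protochlorophyllide reductase, had 1140 and 1205 with dexamethasone and 1020 and 1109 in controls at 24 h, against 1712 and 1352 with dexamethasone and 1669 and 1767 in controls at 4 h. All 4 arrays at 24 h were lower (-0.53, SE 0.10, adjusted p = 0.00828). HEME1, a uroporphyrinogen decarboxylase, had -0.29 (adjusted p = 0.084), and CHLM, the methyltransferase on the magnesium branch, had 0.08. Of 4 genes of carbon fixation and photorespiration, among them RCA (Rubisco activase, 0.22) and PRK (phosphoribulokinase, -0.14), and of 3 carotenoid genes, none passed.

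Of 67 tested probe sets of the plastid genome 0 rose and 2 fell (2.99%), a share near the 3.15% that fell over all probe sets, and their median was -0.11. Of the 44 photosynthesis genes among the plastid lists none passed and 31 lay below 0, with a median of -0.05; it was 0.09 in dexamethasone and -0.27 in control seedlings. The rbcL gene of the large Rubisco subunit had 373 ± 82.7 at 24 h and 450 ± 49.7 at 4 h (SD, n = 4 each; -0.29, adjusted p = 0.0864). The 18 genes of plastid transcription and translation had a median of -0.19, with 16 of them below 0, and the median lay between -0.30 and -0.16 over all settings. The median of these 18 was -0.13 in dexamethasone and -0.37 in control seedlings. Over all probe sets tested 6823 of 14443 lay below 0, and the median was 0.01. The 2 that fell encode ribosomal proteins: rps15 had 191 ± 18.6 at 24 h and 262 ± 38.5 at 4 h (-0.44, adjusted p = 0.0264), and rps2 had 504 ± 54.4 and 640 ± 14.1 (-0.35, adjusted p = 0.0402). Both calls were lost in some alternatives, in 6 and 8 of 18.

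Some nuclear genes that serve the plastid also fell; of those in the next sentences only the Cpn60beta genes were in a list, and the others were named after their values had been seen. NdhN, a subunit of the chloroplast NDH complex of cyclic electron flow, had 188 and 174 with dexamethasone and 169 and 180 in controls at 24 h, against 338 and 289 with dexamethasone and 264 and 290 in controls at 4 h (-0.71, SE 0.09, adjusted p = 0.000651). CRR42, an assembly factor of that complex, had 108 ± 9.33 at 24 h and 175 ± 12.4 at 4 h (SD, n = 4 each; -0.67, adjusted p = 0.00178). Of 8 tested genes with an NDH or CRR symbol, 2 fell and 0 rose, and the median was -0.27. That family was formed around members already seen to pass. Over all probe sets 3.15% fell and the median was 0.01. Cpn60beta4, a subunit of the chloroplast chaperonin known to be needed for folding an NDH subunit, had 92.8 ± 9.73 at 24 h and 163 ± 19.1 at 4 h (-0.78, adjusted p = 0.00197). Its relatives Cpn60beta3 (-0.34, adjusted p = 0.0544) and Cpn60beta2 (-0.21) did not pass. OTP81, a pentatricopeptide repeat protein of plastid RNA editing, had -0.73 (adjusted p = 0.00317), and FUG1, the plastid translation initiation factor, had -0.31 (adjusted p = 0.0439; lost in 11 of 18 alternatives). In the other direction PGRL1B, a component of the second route of cyclic electron flow, had 98.1 ± 5.42 at 24 h and 60.1 ± 7.19 at 4 h (0.67, adjusted p = 0.00336).

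Cell wall loosening genes split. Of 19 tested expansins and xyloglucan transferases, 3 rose, 3 fell and 13 did not pass, with a median of 0.09. Over all probe sets 3.97% rose and 3.15% fell. The sign of the list's median was not stable, since it ran from -0.07 to 0.27 over the settings. EXPA8, an expansin, had 146 and 145 with dexamethasone and 116 and 170 in controls at 24 h, against 78.6 and 51.1 with dexamethasone and 46.2 and 66.0 in controls at 4 h (1.21, SE 0.17, adjusted p = 0.00141). XTH19, a xyloglucan endotransglucosylase, had 227 ± 53.5 at 24 h and 115 ± 21.6 at 4 h (SD, n = 4 each; 0.94, adjusted p = 0.00612), and XTH16 had 0.39 (adjusted p = 0.0404; lost in 9 of 18 alternatives). The 3 that fell were all expansins: EXPA20 had 15.8 ± 4.51 and 35.2 ± 3.27 (-1.0, adjusted p = 0.00674), EXPA4 had 135 ± 9.90 and 224 ± 45.9 (-0.70, adjusted p = 0.0103), and EXPA15 had -0.70 (adjusted p = 0.0256; lost in 6). EXPA7, an expansin of root hairs and the root marker tested, had 0.22 and did not pass (adjusted p = 0.466). Of the wall synthesis genes, CSLA03, a glucomannan synthase, had 0.41 (adjusted p = 0.0194; lost in 5).

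Of 5 tested flavonoid and phenylpropanoid genes 1 fell and 4 did not pass. For this list and the next ones, the shares over all probe sets were 3.97% that rose and 3.15% that fell. CHIL, a chalcone isomerase-like protein, had 44.9 ± 11.9 at 24 h and 94.8 ± 20.2 at 4 h (SD, n = 4 each; -1.02, SE 0.20, adjusted p = 0.0101). The flavonol glycosyltransferases UGT78D1 (-0.74, adjusted p = 0.132) and UGT78D2 (-0.40, adjusted p = 0.099) and DFR, the dihydroflavonol reductase of anthocyanin synthesis (-0.56, adjusted p = 0.41), did not pass. The median of the 5 was -0.56. Leaving out both arrays that stood apart gave 4 that fell and a median of -0.86. Of 10 tested autophagy genes, which serve the recycling of cell contents, 0 rose and 1 fell, ATG8D (-0.46, adjusted p = 0.0492; lost in 11 of 18 alternatives). The other members included ATG8E (0.52, adjusted p = 0.155), and the median was 0.17. The direction of these calls turned with 1 array: without dexamethasone replicate 2 at 4 h 3 rose and 0 fell, and without both arrays that stood apart 2 rose and 1 fell. Of 7 tested defence markers 1 fell, PDF1.2, and the list's median was -0.40 in dexamethasone and 0.32 in control seedlings, with the array that stood apart at 4 h in the first and at 24 h in the second.

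**Figure D2:**
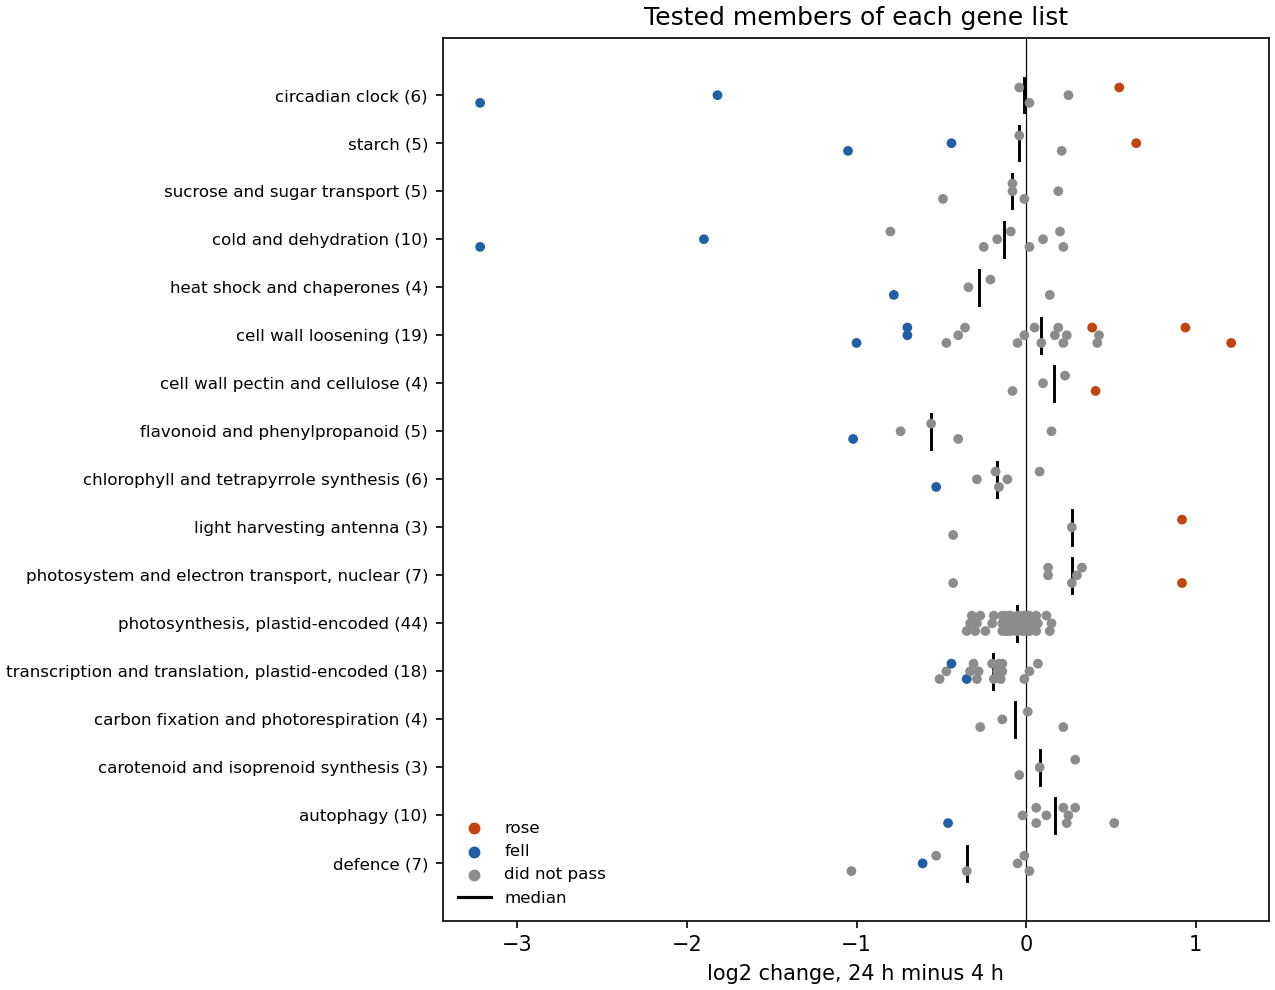
Log2 change at 24 h minus 4 h (horizontal axis) of each tested member of the gene lists (rows). Points are probe sets, coloured by whether they rose, fell or did not pass, and the tick in each row is the list median. In no row did every member pass, and the clock, starch and cell wall loosening rows hold members that passed on both sides of 0.

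In all, 83 probe sets of genes with a RefSeq symbol passed, 38 higher and 45 lower, and those outside the lists above were named after their values had been seen. Among enzymes of primary metabolism THIC, which makes the pyrimidine part of thiamine, had 281 and 305 with dexamethasone and 257 and 307 in controls at 24 h, against 687 and 531 with dexamethasone and 566 and 581 in controls at 4 h (-1.03, SE 0.10, adjusted p = 0.000117). AOR, a chloroplast oxidoreductase that detoxifies reactive carbonyls, was higher, with 706 and 555 with dexamethasone and 663 and 661 in controls at 24 h, against 324 and 256 with dexamethasone and 306 and 254 in controls at 4 h (1.17, SE 0.11, adjusted p = 0.000108). CYP71B26, a cytochrome P450, had 457 ± 33.99 at 24 h and 212 ± 13.3 at 4 h (SD, n = 4 each; 1.09, adjusted p = 1.96e-05). SFP2, a sugar carrier of the plant sugar-porter family, had 63.4 ± 4.51 and 28.3 ± 5.73 (1.07, adjusted p = 0.000691).

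Some genes of redox protection rose at 24 h and others fell. Those that rose included the glutathione reductases GR (0.37, adjusted p = 0.0192) and GR1 (0.45, adjusted p = 0.0165), the sulfiredoxin SRX (0.37, adjusted p = 0.0333) and the chloroplast thioredoxin TRXF2 (0.44, adjusted p = 0.0372). Those that fell included GSTU18, a glutathione transferase (-0.50, adjusted p = 0.0208), and AER, an alkenal reductase (-0.39, adjusted p = 0.0192). These genes were named after their values were seen. A family of glutathione and redox genes, also chosen after that, held 10 tested members. Of these 4 rose and 0 fell, with a median of 0.1, against 3.97% that rose over all probe sets. GSTU18 and AER lay outside that family. The calls of GR1, GR, SRX and TRXF2 were lost in 2, 4, 7 and 9 of the 18 alternatives. Those of GSTU18 and AER were lost in 5 each. Among single genes outside any list, IVD, an isovaleryl-CoA dehydrogenase of leucine breakdown, had 0.65 (adjusted p = 0.0365; lost in 9 of 18 alternatives) and AAH, an allantoate amidohydrolase of ureide breakdown, had 0.67 (adjusted p = 0.00313). FATB, the thioesterase that releases saturated fatty acids from the plastid, had 0.51 (adjusted p = 0.00828).

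Some serine carboxypeptidase-like genes and small secreted proteins fell; these families too were formed around members already seen to pass, and over all probe sets 3.15% fell. SCPL49 had 327 and 289 with dexamethasone and 311 and 298 in controls at 24 h, against 676 and 558 with dexamethasone and 612 and 605 in controls at 4 h (-0.99, SE 0.08, adjusted p = 5.04e-05). With scpl35 (-0.86, adjusted p = 0.000141) and SCPL34 (-0.59, adjusted p = 0.0118) this made 3 of 13 tested relatives that fell, with 0 that rose and a median of -0.16. Of 9 tested defensins and low-molecular-weight cysteine-rich proteins 3 fell and 0 rose: PDF2.1 (15.7 ± 7.96 at 24 h and 58.5 ± 9.79 at 4 h, SD, n = 4 each; -1.74, adjusted p = 0.00287), LCR69 (2549 ± 112 and 3552 ± 364; -0.47, adjusted p = 0.00808) and PDF1.2 (-0.61, adjusted p = 0.019). Members of the defensin family can share sequence, so the probe sets may read close relatives. STOMAGEN, a secreted peptide that promotes stomata, had -0.46 (adjusted p = 0.0174; lost in 4), and GTR1, a glucosinolate transporter, had 80.7 ± 15.5 and 142 ± 19.5 (-0.79, adjusted p = 0.00082).

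Further gene families, formed around members already seen to pass, held from 1 to 3 calls each, against 3.97% that rose and 3.15% that fell over all probe sets tested. UGT71B1, a glycosyltransferase, had 44.3 ± 4.19 at 24 h and 92.9 ± 14.4 at 4 h (SD, n = 4 each; -0.99, adjusted p = 0.000916) and was the 1 of 26 tested UDP-glycosyltransferases that passed. Of 5 tested SWEET sugar transporters 1 fell, the glucose transporter SWEET1 (-0.48, adjusted p = 0.0284; lost in 8 of 18 alternatives). Of 8 aldehyde dehydrogenases ALDH11A3 rose (0.42, adjusted p = 0.00647), and ALDH2C4 (-0.36) and ALDH10A9 (-0.33) fell. The calls of ALDH2C4 and ALDH10A9 were lost in 7 and 11 of 18 alternatives. Of 5 cellulose synthase-like genes 2 rose, CSLA03 and CSLC04, the glucan synthase of the xyloglucan backbone (305 ± 27.4 at 24 h and 215 ± 11.9 at 4 h; 0.49, adjusted p = 0.00737). Of 7 tetraspanins, membrane proteins that organise membrane patches, 2 rose, TET10 (0.55) and TET3 (0.49), which were lost in 1 and 5 of 18 alternatives. Of 9 beta glucosidases 2 fell, BGLU28 (-0.89) and BGLU42 (-0.44), which were lost in 9 of 17 and 11 of 18 alternatives. The homeodomain-leucine zipper factor HAT2 had 111 ± 9.12 at 24 h and 70.1 ± 9.66 at 4 h (0.63, adjusted p = 0.00228). CCL, a transcript known to cycle with the clock, had 2061 ± 155 and 2688 ± 308 (-0.38, adjusted p = 0.0454; lost in 11).

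Of the single-gene probe sets with the strongest changes, most belong to genes known here by locus tag alone. AT3G15310 had the largest log2 increase of a single-gene probe set, with 29.5 ± 3.87 at 24 h and 2.54 ± 2.32 at 4 h (SD, n = 4 each; 2.34, adjusted p = 0.000514), but its 4 h signals lay below percentile 40. AT1G62510 had 399 and 342 with dexamethasone and 274 and 529 in controls at 24 h, against 79.1 and 167 with dexamethasone and 67.2 and 82.0 in controls at 4 h (1.97, adjusted p = 0.00103). AT1G73480 was more even, with 183 and 148 with dexamethasone and 171 and 165 in controls at 24 h, against 48.7 and 33.4 with dexamethasone and 48.3 and 42.0 in controls at 4 h (1.86, adjusted p = 1.24e-05). AT3G01060 (1.68), AT5G62280 (1.68), AT5G02180 (1.65), AT4G16880 (1.56), AT1G19530 (1.48) and AT1G73750 (1.37) followed. AT5G16030, AT5G35970, AT4G27450, AT4G11570 and AT3G44450 had 1.32, 1.31, 1.28, 1.22 and 1.21. Among those that fell, AT2G23910 had 12.8 ± 2.35 at 24 h and 79.5 ± 16.1 at 4 h (-2.28, adjusted p = 2.11e-05), with all 24 h signals below percentile 40, and AT1G17665 (-1.78), AT5G14650 (-1.63) and AT3G15720 (-1.57) followed. AT5G09820, AT1G52770, AT1G06000, AT5G23920 and AT4G28080 had values from -1.19 to -1.11.

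The 2 treatments were then fitted apart, each with 2 arrays per time. Dexamethasone seedlings gave 103 that rose and 113 that fell (0.713% and 0.782% of those tested, 1.5% together), and control seedlings 253 and 186 (1.75% and 1.29%, 3.04% together). These counts depend heavily on the fit and on single arrays. With the replicate number as a block, which did not pair the samples, dexamethasone gave 648 calls. With no filter on low values there were 37 calls in dexamethasone and 105 in controls, and without the trend 64 and 137. Without the arrays that stood apart, the dexamethasone counts came to 411 and 361 (replicate 2 at 4 h left out) and the control counts to 496 and 426 (replicate 1 at 24 h left out). Over each array left out in turn, those that rose numbered 3 to 927 in dexamethasone and 39 to 893 in control seedlings, and those that fell 9 to 777 and 22 to 643. The 2 fits share no arrays. Of the 103 and 113 calls in dexamethasone, all 103 and all 113 had the same direction in controls, and 78 and 80 of them passed there. Of the 253 and 186 calls in controls, 240 (94.9%) and 175 (94.1%) had that direction in dexamethasone, and 78 and 80 passed there. Over all probe sets 54.5% lay above 0 in dexamethasone and 50.1% in controls.

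No probe set passed the test of the difference between the treatments in their change over time (0.0% of those tested, limma). Its unadjusted p was below 0.05 for 712 probe sets, against 722 expected by chance, and the smallest adjusted p was 0.833. Without replicate 1 of dexamethasone at 4 h 6 probe sets passed. In simulated data of this design 64% of differences of 2 log2 units and 16% of differences of 1 unit were recovered. The simulated noise was drawn independently for each array, while the 2 arrays that stood apart shared a deviation. These shares are therefore only a guide, and many differences of 1 unit may be missed here. Among the named genes, AT5G14650 had a change of -1.18 in dexamethasone and -2.08 in control seedlings, and AT1G69570 had 1.27 and 0.02; neither difference passed after adjustment.

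**Figure D3:**
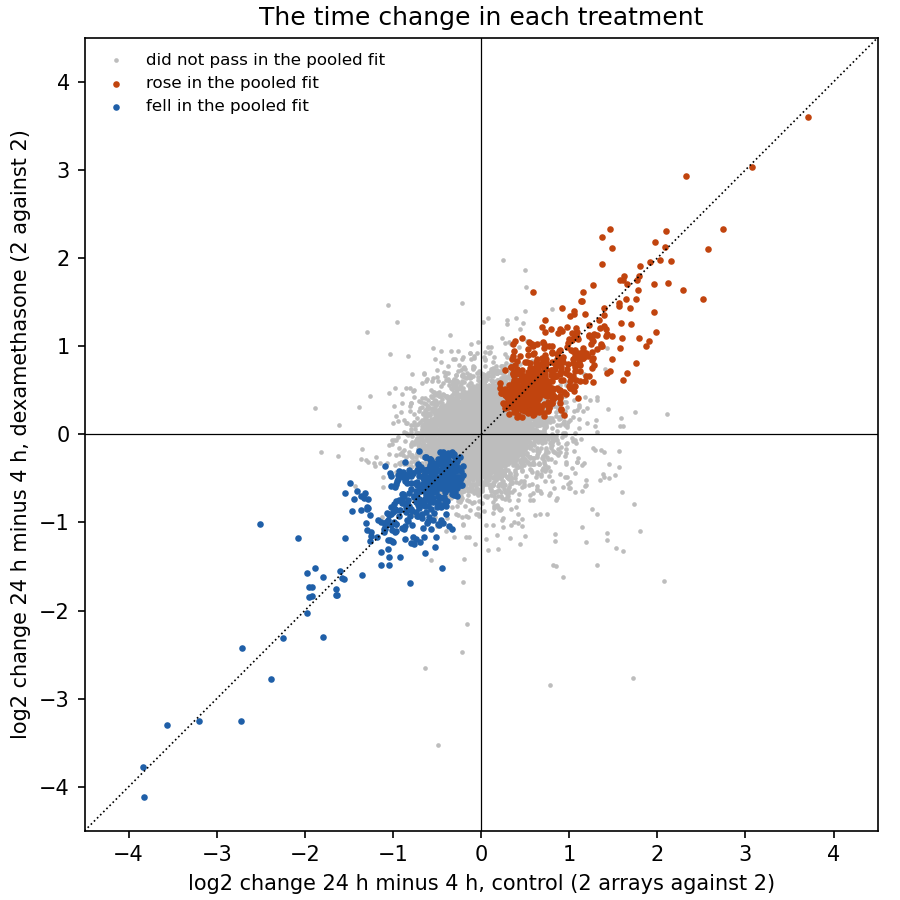
Log2 change at 24 h minus 4 h in dexamethasone seedlings against that in control seedlings for the 14443 probe sets tested, with no array shared between the axes; the dotted line marks equal change. COR27 lies near that line at -3.25 in dexamethasone and -3.20 in controls; coloured points passed in the pooled comparison, whose choice by the mean of both changes nearly fixes that they share a direction.

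The count of the pooled comparison was sensitive to single arrays. Without both arrays that stood apart 803 rose and 683 fell. Among the lists, this left the calls of the clock (1 rose and 2 fell), starch (1 and 2) and antenna genes (1 and 0) at the same counts. It gave 3 that fell of the cold genes, 2 of chlorophyll synthesis, 4 of plastid transcription and translation, 1 each of plastid photosynthesis, carbon fixation and sugar transport, and 3 of the defence markers. Leaving out single arrays gave 331 to 725 that rose and 267 to 632 that fell. The counts changed by over 1.5 times without either control array at 4 h (380 and 300, 362 and 277), control replicate 2 at 24 h (331 and 301) and dexamethasone replicate 1 at 24 h (337 and 267). The number that fell did so as well without dexamethasone replicate 1 at 4 h (271) and dexamethasone replicate 2 at 24 h (303).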

How the data were processed

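Total RNA of whole seedlings was hybridised to 1 array per sample. The deposited values are linear signal intensities per probe set for which the submitters' processing notes name the MAS5 algorithm and the GCOS software of the authors, without versions. The files show a common trimmed mean on every array, so changes in total messenger RNA are hidden. Detection calls were not used. Precision is limited by there being 4 arrays per time. The 2 table columns of the 0 h arrays were not used.

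Of 22810 probe sets, 64 were controls, 13513 had 1 gene in the platform annotation, updated by name through the RefSeq table of TAIR10.1, 503 had several and 8730 none listed. GLK1 and GLK2 were not analysed here. Signals were taken as log2(signal + 4.35), the constant being percentile 20 of all values, and a probe set entered the fit if 2 or more of the 8 arrays held it over percentile 40, which kept 14443 of 22746. The fit used limma 3.58.1 under R 4.3.3 (lmFit, trended eBayes, 5 residual degrees of freedom) and two-sided tests with Benjamini-Hochberg adjustment over the probe sets kept. Each treatment was also fitted alone, and the difference between treatments was tested as a contrast of 4 group means. In simulated data of 14443 probe sets the pooled comparison recovered 28%, 82% and 100% of changes of 0.5, 1 and 2 log2 units, with 4 false calls. The noise there was independent between arrays, so these shares are only a guide for the real arrays.

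Genes were named by a rule: COR27, AT4G33980 and GI; the 15 largest single-gene increases and decreases that passed without overlap of the times; every tested clock, photoperiod and light-signalling gene; and up to 4 members of each other list by smallest p. Other genes with a symbol were named after their values were seen. The comparison, members and lists were chosen with earlier results of these data known. Replicate numbers were checked and did not pair the samples. Python 3.11.15 with pandas 2.3.3 and matplotlib 3.10.9 served for tables and plots.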

Additional observations from a re-analysis of the deposited data

Results flagged for a closer look

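Among 254 groups of 4 arrays of the named genes, 16 held a signal whose gap to the nearest other exceeded Dixon's 95% critical value; chance gives about 13. At 24 h, replicate 1 of the control had 78.2 for Cpn60beta4, against 97.1 to 97.9 on the other arrays, and 443 for TUB9, against 491 to 499. Replicate 2 of the 24 h control had 423 for rps2 (others 523 to 538), 183 for STOMAGEN (145 to 149), 282 for PRH75 (302 to 305) and 508 for GR (473 to 476). Replicate 2 of dexamethasone at 24 h had 91.2 for TBL37 (87.2 to 87.5) and 257 for XTH16 (200 to 209). At 4 h, replicate 2 of dexamethasone had 73.0 for AT5G62280 (33.7 to 37.5), 42.4 for AT1G19530 (14.5 to 15.3), 619 for rps2 (645 to 648) and 65.9 for RTE1 (61.1 to 61.6). Replicate 1 of dexamethasone at 4 h had 193 for CYP71B26 (217 to 221), 36.9 for SFP2 (25.1 to 26.0) and 291 for TRXF2 (200 to 207). Replicate 1 of the 4 h control had 49.4 for AAH (57.1 to 58.0).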

How the results depend on the processing

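Over 18 alternatives of the pooled comparison, 66 of the 110 named probe sets that passed did so in every one, 44 lost the call in at least 1, and 0 reversed; of the 17 that did not pass, 4 passed in at least 1. Adjusted p-values of GI in limma ran from 0.0159 to 0.0891. AT5G52660, at -0.04, had 0.01 without control 4 h replicate 2, 0.02 without control 24 h replicate 1 or dexamethasone 4 h replicate 1, and ran from -0.10 to 0.02 over single arrays left out. FIO1, at 0.02, had -0.02 after quantile normalization and ran from -0.13 to 0.18. In the pooled comparison, leaving out 1 array gave 331 to 725 that rose, 267 to 632 that fell and 604 to 1357 in all. Without both arrays that stood apart 683 fell and 803 rose. The other alternatives of the pooled comparison, in the constant added, the filter, the normalization, the trend and the covariate, gave 772 to 1104 calls.

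In dexamethasone seedlings alone, with no filter 13 rose and 24 fell (37), and without the trend 30 and 34 (64). Leaving out 1 array gave 3 to 927 that rose, 9 to 777 that fell and 12 to 1704 in all, where the lone array left at a time is assumed to vary like the others; the count was lowest without dexamethasone 24 h replicate 2 and highest without dexamethasone 4 h replicate 1. In control seedlings alone, with no filter on low values 62 rose and 43 fell (105 in all), and without the trend 84 and 53 (137). Leaving out 1 array gave 39 to 893 that rose, 22 to 643 that fell and 61 to 1536 in all. The lowest came without control 4 h replicate 1 and the highest without control 24 h replicate 2. The difference between treatments gave 0 calls in each alternative except without dexamethasone 4 h replicate 1, with 5 that rose and 1 that fell, so 0 to 6. No filter tests more probe sets; the causes of the other shifts were not tested.

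Replicate numbers did not pair the samples: deviations of same-numbered arrays correlated between groups with r from -0.424 to 0.114. With the replicate number as a block, the pooled comparison gave 519 that rose and 399 that fell (918), dexamethasone alone 338 and 310 (648), and controls alone 276 and 198.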
